A study of Mus musculus with 6 samples.

Results

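The effect of losing zinc finger 1 of the transcription factor Ikaros was measured in mouse B cell precursors transformed by BCR-ABL. Whole bone marrow of C57BL/6 mice was transduced at day 0 with a retrovirus that carries the p185 form of BCR-ABL and a yellow fluorescent protein (BCR-ABL-p185-IRES-YFP), and polyadenylated RNA was sequenced after 14 days in culture. All groups carry this oncogene, and the labels call the cells transformed proB-ALL. The labels name no sort of the transduced cells. The wild type (wt) group and the group homozygous for the finger 1 mutation (Ikaros_ZnF1-/-, here ZnF1 mutant) had 2 libraries each, described as biological replicates. These were 4 of the 6 libraries of the series. The other two came from the finger 4 mutant (Ikaros_ZnF4-/-, here ZnF4 mutant), and their values stand beside the others as a second mutant. Expression is in RPKM (reads scaled to transcript length and library size), summed per gene symbol. Of 22099 genes, the 11345 with at least 1 RPKM in at least 2 of the 6 libraries were compared.

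Ikaros, the product of Ikzf1, binds DNA through a set of zinc fingers near its N terminus and pairs with itself and its relatives through fingers near its C terminus. The inner fingers of the DNA-binding set are needed for stable binding, and the outer ones, finger 1 and finger 4, change which sites are bound. In B cell precursors Ikaros is known to restrain the response to the pre-B cell receptor, adhesion to stroma and growth, and it is a tumour suppressor in leukaemia with BCR-ABL. It can repress or activate genes and is found in the NuRD chromatin complex.

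The ZnF1 mutant differed from wt mainly by genes at a higher level. With the replicate number as a block, limma (two-sided, Benjamini-Hochberg adjusted over the 11345 genes, threshold 0.05) called 1502 genes, which is 13.2% of those tested. Of these, 1175 rose (10.4%) and 327 fell (2.88%), so that 78.2% of the calls were higher in the mutant. A gene that passed the filter only through the ZnF1 mutant libraries could be called only as a rise. One that passed only through the wt libraries could be called only as a fall. How many did so is not given here. More genes reached 1 RPKM in the ZnF1 mutant libraries (11119 and 10937) than in those of wt (10807 and 10582). The median difference on the log2(RPKM + 1) scale was 0.81 among genes that rose and -0.58 among genes that fell, and -0.01 over all genes tested. On this scale the change of a gene with few reads appears smaller than it is. Each of the 1502 differences had the same sign in both replicate pairs, and in 1284 of them the mutant libraries lay outside the range of the wt libraries. Over all genes tested, 31.1% had groups that did not overlap in this way. A test with the block favours genes that differ alike in both pairs. The calls were chosen by these same values, so neither count is support for them. A difference of at least 1 log2 unit in both pairs was found for 2.23% of genes in the upward direction and for 0.467% in the downward direction.

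These calls rest on the block. Without it limma called 0 genes in the ZnF1 mutant against wt, with a lowest adjusted p of 0.0924 and 1281 genes at an unadjusted p under 0.05. What the replicate numbers stand for is not given in the labels. With the block, the p-values measure how far group differences vary between the 2 replicate numbers, with information on the variance shared across genes. With 2 libraries a group, they cover only these libraries. An exact permutation test of 2 against 2 libraries, which ignores the replicate numbers, cannot go below a p of 0.333. The calls also depended on single libraries: 0 genes were called when ZnF1 mutant replicate 1 or wt replicate 2 was left out. Leaving out wt replicate 1 gave 189 calls, and leaving out ZnF1 mutant replicate 2 gave 414. Without ZnF4 mutant replicate 1 or 2, which enter only the estimates of the spread and of the block, 689 and 694 genes were called. Every fit without 1 library has 1 residual degree of freedom, so a lower count does not show which library the differences come from. Each of the 1502 genes kept its direction when any 1 library was left out. This adds little, since all 1502 already had the same sign in both pairs. Leaving out a ZnF4 mutant library cannot change the difference between the ZnF1 mutant and wt.

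**Figure D1:**
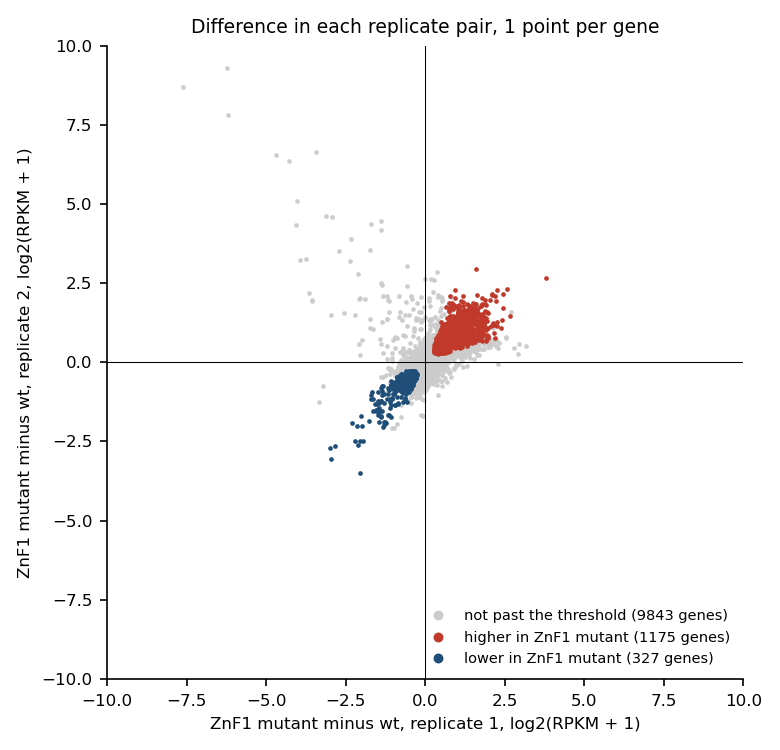
Difference between the ZnF1 mutant and wt in log2(RPKM + 1), in the replicate 1 pair (horizontal axis) and the replicate 2 pair (vertical axis), with 1 point for each of the 11345 genes; red and blue mark genes called higher and lower. Called genes lie along the diagonal, which a test with the replicate number as a block favours. The grey points at the upper left, which include S100a8, differ in opposite directions in the 2 pairs.

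Across all genes, the difference in the replicate 1 pair and that in the replicate 2 pair had a Pearson correlation of 0.415 and a Spearman correlation of 0.615, given as a description, since genes are not independent replicates. The sign was the same for 7786 genes (68.6%). In the plot of the 2 pairs, a set of genes stands apart with large differences of opposite sign. S100a8, which encodes a calcium-binding protein of neutrophils, was listed at 199.8 and 0.2 RPKM in wt replicates 1 and 2 and at 1.7 and 741.9 RPKM in ZnF1 mutant replicates 1 and 2. The high library was thus replicate 1 in wt and replicate 2 in the mutant.

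Ikzf1 itself was transcribed in both groups. It was at 89.2 and 85.9 RPKM in wt and at 101.5 and 116.7 RPKM in the ZnF1 mutant, a log2 difference of 0.31 that missed the threshold (limma, adjusted p = 0.125). A level summed over the gene does not show whether finger 1 is present, so it does not check the genotype. Of its relatives, Ikzf3 (Aiolos) was at 50.9 and 59.9 RPKM in wt and at 51.2 and 64.2 RPKM in the mutant. Ikzf4 and Ikzf5 were below 5 RPKM in all 6 libraries, Ikzf2 (Helios) was at or below 0.2 RPKM and was not tested, and none of the 4 members tested was called.

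The markers that define the B lineage were present in all 6 libraries. The 10 defining markers summed to 3059.9 and 2334.3 RPKM in wt and to 3402.5 and 2958.1 RPKM in the ZnF1 mutant, and the ranges of the groups overlap. Cd79a, a signalling chain of the B cell receptor, was at 433.1 and 222.6 RPKM in wt and at 485.7 and 308.4 RPKM in the mutant. Pax5 and Ebf1, the factors that commit cells to the B lineage, had log2 differences of 0.23 and -0.01 and were not called. Of the 10, only Rag1 and Cd79b were called, both higher in the mutant.

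Markers of macrophages were higher in the ZnF1 mutant as well. Of 32 macrophage and monocyte markers, 25 rose and none fell, with a median difference of 1.35, and their sum was 1256.4 and 998.3 RPKM in wt, 3232.0 and 3072.5 RPKM in the ZnF1 mutant; in the ZnF4 mutant it was 1134.9 and 1197.1 RPKM. Both ZnF1 mutant libraries stood above the other 4. Cd68, a lysosomal protein of macrophages, was at 55.2 and 45.1 RPKM in wt and at 161.5 and 140.9 RPKM in the mutant (log2 difference 1.58, limma adjusted p = 0.0041). Csf1r, the receptor for the macrophage growth factor, was at 13.5 and 12.6 RPKM in wt and at 36.9 and 32.9 RPKM in the mutant. In bulk RNA, more cells of a type and more RNA per cell cannot be told apart.

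Stromal markers rose too, with 12 of 18 tested members called higher, a median of 1.37, and sums of 133.1 and 145.5 RPKM in wt against 600.0 and 316.5 RPKM in the ZnF1 mutant. The median was 0.91 without ZnF1 mutant replicate 1. The sum was highest in that library, where Col1a1, a fibrillar collagen, reached 28 RPKM against 8.8 in replicate 2 and 5.5 and 4.2 in wt. Granulocyte markers followed no group: their sum was 552.3 and 10.9 RPKM in wt and 40.8 and 1703.0 RPKM in the ZnF1 mutant, and of 11 tested only Mmp9 was called. Of 4 endothelial markers tested, Kdr, Eng and Pecam1 rose (median 0.38), and of 3 dendritic cell markers, Bst2 and Batf3 rose (median 0.78). Of the T and NK cell list, 13 of 20 markers were under 1 RPKM in every library, among them Cd3e and Cd8a, which were listed at 0 in all 6. Of the 7 tested, Cd4 and Tcf7 rose, from 0.1 and 0.1 RPKM to 1.7 and 2 RPKM and from 2.2 and 1.5 RPKM to 5.5 and 4.1 RPKM, and Thy1 and Lat fell. No erythroid, mast cell or plasma cell marker was called. In all, 45 of the 87 tested markers of other cell types rose and 2 fell, against 10.4% and 2.88% of all genes tested. They make up 45 of the 1175 genes that rose and 2 of the 327 that fell. The part of other cells in the remaining calls was not tested. When 84 of the 87 tested markers of other cell types, those on no pathway list, were left out of the fit, 1542 genes were called.

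**Figure D2:**
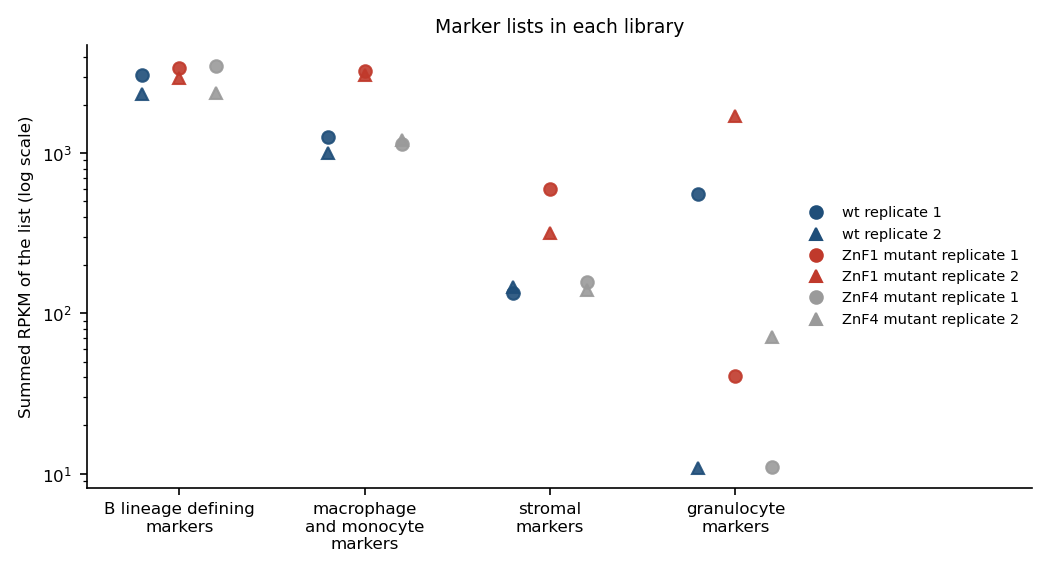
Summed RPKM of 4 marker lists in each library, on a log axis; colours give the group, circles replicate 1 and triangles replicate 2. The macrophage and stromal sums of both ZnF1 mutant libraries (3072.5 and 3232.0, and 316.5 and 600.0) lie above those of the other 4, while the granulocyte sum is high in wt replicate 1 and ZnF1 mutant replicate 2.

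By the rule for named genes, the 15 largest rises and 15 largest falls among called genes with groups that did not overlap and at least 5 RPKM on average in either group are described first. They were taken from 657 rises and 187 falls that met these conditions. Being chosen for their size, their values are a description. The adjusted p of the 15 rises ran from 0.0041 to 0.0407 and that of the 15 falls from 0.00296 to 0.0302.

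The largest rise was that of Stxbp6 (amisyn), a regulator of vesicle fusion. It was at 0.5 and 0.1 RPKM in wt, at 19.7 and 6 in the ZnF1 mutant and at 0 in both ZnF4 mutant libraries (log2 difference 3.23, SE 0.37). Both ZnF1 mutant libraries were above wt, as the rule requires, and they differed from each other. Stxbp6 reached 1 RPKM only in the ZnF1 mutant libraries, so it was tested through them alone. Cd74, the invariant chain that escorts MHC class II molecules, was at 193.8 and 104.9 RPKM in wt and at 1160.8 and 524.8 RPKM in the ZnF1 mutant (log2 difference 2.44, SE 0.11), a ratio of means of 5.64. It was among the 5 most abundant genes that rose, with Tmsb4x (thymosin beta 4, which binds actin monomers), Vim (the filament protein vimentin), Cd79b (a signalling chain of the B cell receptor) and Ly6e, a small surface protein whose groups overlapped.

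Several of the strongest rises were lymphoid or regulatory genes. Rag1, a subunit of the recombinase that cuts immunoglobulin gene segments, was at 5.4 and 8.7 RPKM in wt and at 29.2 and 35.9 RPKM in the ZnF1 mutant (log2 difference 2.08, SE 0.14). Tcf7l1, a repressor among the nuclear partners of beta-catenin, was at 5.2 and 2.8 RPKM in wt and at 28.5 and 17.3 RPKM in the mutant, with differences of 2.25 and 2.27 in the 2 pairs. S1pr3, a receptor for sphingosine 1-phosphate, was at 1.1 and 0.7 RPKM in wt and at 8 and 6.5 RPKM in the mutant. The groups did not overlap for these 3 genes, as the rule that named them requires. Ncam2, a neural adhesion molecule, rose from 0.4 and 0.5 RPKM to 5 and 5.5 RPKM, and Npy (neuropeptide Y) from 7.9 and 4.9 to 31.4 and 22 RPKM. Ly6a (Sca-1, a surface protein of stem and activated cells) and S100a6, a calcium-binding protein, rose in both pairs and most in replicate 1, where they reached 60.3 and 373.5 RPKM.

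Others of the 15 rises are genes known from myeloid cells: Cd33 (a sialic acid receptor), Clec4a3 (a lectin receptor), Apoe (a lipid carrier), Gpnmb (a lysosomal glycoprotein) and Mmp9 (a gelatinase). Their log2 differences ran from 1.89 to 2.28. Cd33 was at 1.6 and 0.8 RPKM in wt and at 6.9 and 12.9 RPKM in the ZnF1 mutant. Clec4a3 was at 2.1 and 2.3 RPKM in wt and at 13.2 and 13 RPKM in the mutant. Apoe, Gpnmb and Mmp9 are members of the macrophage and granulocyte lists above.

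**Figure D3:**
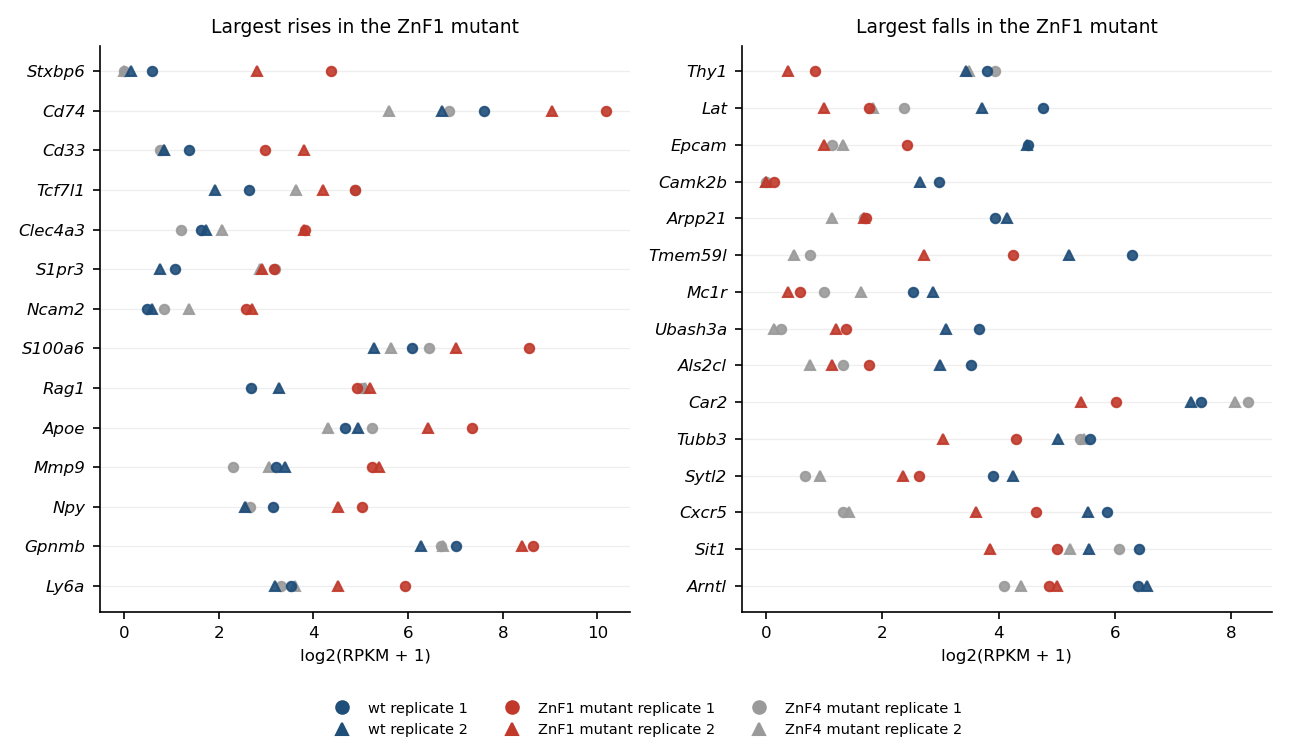
log2(RPKM + 1) of 14 of the 15 largest rises (left) and of the 15 largest falls (right) in each of the 6 libraries; colours give the group, circles replicate 1 and triangles replicate 2. Both ZnF1 mutant libraries lie outside the range of wt for all 29 genes drawn, as the rule requires; the grey ZnF4 mutant points lie with wt for Thy1 and with the ZnF1 mutant for Rag1 and S1pr3.

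The largest fall was that of Thy1, a surface glycoprotein of T cells and neurons. It was at 12.9 and 9.9 RPKM in wt and at 0.8 and 0.3 RPKM in the ZnF1 mutant (log2 difference -3.01, SE 0.08, limma adjusted p = 0.00296), a ratio of wt over mutant of 20.7. In the ZnF4 mutant it was at 14.3 and 10.2 RPKM, close to wt. Lat, a membrane adaptor of the T cell receptor that pre-B cells also use, was at 26.2 and 12.1 RPKM in wt and at 2.4 and 1 RPKM in the ZnF1 mutant (log2 difference -2.86, SE 0.14). Thy1 and Lat stand on the T cell list, of which Cd3d, Cd3e and Cd8a were at or below 0.1 RPKM throughout. Epcam, an epithelial adhesion molecule, was at 21.6 and 21.4 RPKM in wt and at 4.4 and 1 RPKM in the mutant.

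Camk2b, a calmodulin-dependent kinase subunit, was at 6.9 and 5.3 RPKM in wt, at 0.1 and 0 in the ZnF1 mutant and at 0 in the ZnF4 mutant. It was thus nearly absent from all 4 mutant libraries. Arpp21, a phosphoprotein regulated by cyclic AMP, was at 14.3 and 16.8 RPKM in wt and at 2.3 and 2.2 RPKM in the ZnF1 mutant. Ubash3a, a phosphatase that dampens antigen receptor signals, was at 11.7 and 7.6 RPKM in wt and at 1.6 and 1.3 RPKM in the mutant. Sit1, an adaptor that recruits the phosphatase Shp2, was at 84.1 and 45.8 RPKM in wt and at 31.2 and 13.4 RPKM in the mutant, with a difference of -1.55. Arntl, the clock factor Bmal1, fell from 83.6 and 92.6 RPKM to 28.1 and 31 RPKM.

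Car2 (carbonic anhydrase 2) was at 177.7 and 157.9 RPKM in wt, at 63.6 and 41.6 in the ZnF1 mutant and at 311.4 and 267.8 RPKM in the ZnF4 mutant, so the mutants lay on opposite sides of wt. Tmem59l, Als2cl, Sytl2 (a protein of secretory granules), Mc1r (a melanocortin receptor), Tubb3 (a beta tubulin) and Cxcr5, a chemokine receptor whose values stand with the later B cell genes, complete the 15, with differences from -1.58 to -2.27. Mc1r and Tubb3 are neighbours, and the rule by which reads of overlapping transcripts were assigned is unknown here. The most abundant falls were Lgals9 (galectin 9), Ncl (nucleolin), Ldha (lactate dehydrogenase A), Ranbp1 (a partner of the transport GTPase Ran) and Csda (a cold shock domain protein), with differences from -0.36 to -0.52. Of these 5, Lgals9 and Ldha had groups that overlapped.

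Both recombinase genes rose. Of 17 V(D)J recombination and end-joining genes, 3 rose and 1 fell, with a median of -0.07. That is 23.5% called, against 13.2% of all genes tested. Counts of list members here and below stand beside shares over all genes of 10.4% higher and 2.88% lower. Rag2, the partner of Rag1, was at 4.4 and 8.6 RPKM in wt and at 12.3 and 17.2 RPKM in the ZnF1 mutant (log2 difference 1.11, limma adjusted p = 0.0179). Dclre1c (the nuclease Artemis) had a difference of 0.40 and overlapping groups. Lig4, the ligase of end joining, was at 9.6 and 11.8 RPKM in wt and at 6.6 and 7.6 RPKM in the mutant (-0.53, limma adjusted p = 0.0223). The ZnF4 mutant libraries had Rag1 at 31.6 and 33.3 RPKM, as high as in the ZnF1 mutant.

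Of 24 B lineage transcription factors, 3 rose and 2 fell (20.8% called, against 13.2% of all genes tested), with a median of 0.10. Leaving out ZnF1 mutant replicate 2 gave -0.06, leaving out wt replicate 1 gave 0.03 and leaving out ZnF1 mutant replicate 1 gave 0.17. Id2, an inhibitor of E proteins, was at 8.2 and 5.6 RPKM in wt and at 17.9 and 12.9 RPKM in the ZnF1 mutant (1.06, limma adjusted p = 0.0179). Sfpi1 (PU.1), which is used by both B cells and macrophages, was at 60.5 and 32.5 RPKM in wt and at 95.1 and 64.6 RPKM in the mutant. Bcl6, a repressor induced as pre-B cells leave the cycle, rose from 1.2 and 1.1 RPKM to 2.7 and 2.1 RPKM. Ets1 fell from 84.6 and 74.5 RPKM to 53.3 and 44.8 RPKM, and Myb, which sustains progenitors, from 102 and 116.4 RPKM to 76.6 and 79 RPKM. The groups did not overlap for any of these 5.

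The pre-B cell receptor signals through the Cd79 chains and Src family and Syk kinases. Of 22 members of this list, 7 rose and none fell, with a median of 0.18, which was 0.32 without ZnF1 mutant replicate 1. Cd79b was at 428 and 408 RPKM in wt and at 646.4 and 662.5 RPKM in the ZnF1 mutant, a ratio of means of 1.57. Lyn, which can both start and dampen the signal, was at 26.6 and 27.5 RPKM in wt and at 46.4 and 49.8 RPKM in the mutant (0.81, limma adjusted p = 0.00824). Bank1, a scaffold for Lyn, rose from 21.5 and 36.1 RPKM to 44.4 and 51.7 RPKM. Sykb (Syk) had a difference of 0.44 and Vpreb2, a surrogate light chain, one of 0.36. Fgr, a kinase known from myeloid cells, rose from 1.2 and 0.4 RPKM to 2.8 and 3.5 RPKM.

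Inhibitory receptors and phosphatases rose in 10 of 22 members tested, and none fell (median 0.45, and 0.26 without ZnF1 mutant replicate 2). Fcgr2b, the inhibitory Fc receptor of B cells and macrophages, was at 16.9 and 15.6 RPKM in wt and at 53.7 and 57.9 RPKM in the ZnF1 mutant (1.72, limma adjusted p = 0.0041). Ptpn6 (the phosphatase Shp1) was at 76.8 and 63.5 RPKM in wt and at 111.2 and 95.5 RPKM in the mutant. Ceacam1 was at 4.8 and 4.6 RPKM in wt and at 8.9 and 11.5 RPKM in the mutant. Lilrb3, Cd300a, Lair1 and Lilrb4 are inhibitory receptors found on myeloid cells too, and each was below 10 RPKM in wt. The sum of macrophage markers, given above, moved in the same direction, and its part in this list was not tested.

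Of 10 MHC class II presentation genes tested, 4 rose and none fell, with a median of 0.62, which was 0.30 without ZnF1 mutant replicate 2. Those that rose were Cd74, the peptide exchange factors H2-DMa and H2-DMb1, and H2-Oa, which restrains them. H2-DMa was at 7.1 and 3.9 RPKM in wt and at 16.8 and 12.3 RPKM in the ZnF1 mutant (1.29, limma adjusted p = 0.006). H2-DMb1 stood at 1 and 0.8 RPKM in wt and at 2.3 RPKM in both mutant libraries. Ciita, the transactivator of these genes, was under 1 RPKM in every library. Macrophages express MHC class II genes as well, and the part of such cells here was not tested.

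Among genes of later B cell stages, 7 of 18 tested rose and 1 fell (median 0.11, against 0.03 without ZnF1 mutant replicate 2 and 0.34 without ZnF1 mutant replicate 1). Il2ra (Cd25), a surface marker of pre-B cells, was at 7.1 and 8 RPKM in wt, at 26.6 and 24 in the ZnF1 mutant and at 0.3 and 0.2 RPKM in the ZnF4 mutant. The 3 groups did not overlap, and the mutants lay on opposite sides of wt. Ccr7, a homing receptor for lymph nodes, was at 5.4 and 3.7 RPKM in wt and at 16 and 13.8 RPKM in the ZnF1 mutant (1.53, limma adjusted p = 0.00522). Cd86, a costimulatory ligand, Cd55 and Cd180 rose from lower levels, each at or below 14.2 RPKM in all ZnF1 mutant and wt libraries. What other cell types add to the rises of this list was not tested. Cxcr5, the receptor for entry into follicles, was the one that fell, from 57.5 and 45.4 RPKM to 24 and 11.2 RPKM, and it was at 1.5 and 1.7 RPKM in the ZnF4 mutant.

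Stem and progenitor genes moved in both directions: 5 of 11 tested rose and 2 fell (median 0.39). The median depended on single libraries: leaving out replicate 2 of wt or of the ZnF1 mutant gave 0.09 and 0.10, and leaving out replicate 1 of either gave 0.68 and 0.67. Il7r, the interleukin 7 receptor on which B cell precursors depend, was at 15.3 and 21.3 RPKM in wt and at 43.5 and 70.5 RPKM in the ZnF1 mutant (1.56, limma adjusted p = 0.0113). Cd44, a hyaluronan receptor, was at 35.3 and 30.8 RPKM in wt and at 58.4 and 53.2 RPKM in the mutant. Enpep (the BP-1 antigen of pro-B and pre-B cells) fell from 136.7 and 144 RPKM to 51.1 and 61.7 RPKM, and was at 7 and 6 RPKM in the ZnF4 mutant. Both wt libraries were well above all mutant libraries for Enpep. Cd93 (AA4.1, a marker of immature B cells) fell from 74.9 and 82 RPKM to 55 and 58.4 RPKM. Kit, the stem cell factor receptor, rose from a low level, from 0.4 and 0.3 RPKM in wt to 1 and 1.6 RPKM in the ZnF1 mutant, against 16.2 and 15.4 RPKM in the ZnF4 mutant.

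Cytokine receptors rose in 11 of 24 members tested, and none fell (median 0.59). Besides Il2ra and Il7r, these included Il10ra, at 26.6 and 23.4 RPKM in wt and at 49.3 and 44.8 RPKM in the ZnF1 mutant. Ifngr1, a chain of the interferon gamma receptor, was at 85.3 and 82.8 RPKM in wt and at 150.6 and 129.5 RPKM in the mutant. Il4ra, Tgfbr2 and Ifngr2 had differences from 0.57 to 0.76. The groups did not overlap for any of these. Of chemokine and sphingosine phosphate receptors, 6 of 10 tested rose and 1, Cxcr5, fell (median 0.92). S1pr1, the receptor for exit into blood, was at 3 and 3.2 RPKM in wt and at 10.8 and 14.1 RPKM in the mutant. S1pr2 rose from 1.7 and 1.1 RPKM to 4.7 and 2.6 RPKM. The sum of macrophage markers, given above, moved in the same direction as both receptor lists, and its part in them was not tested.

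**Figure D4:**
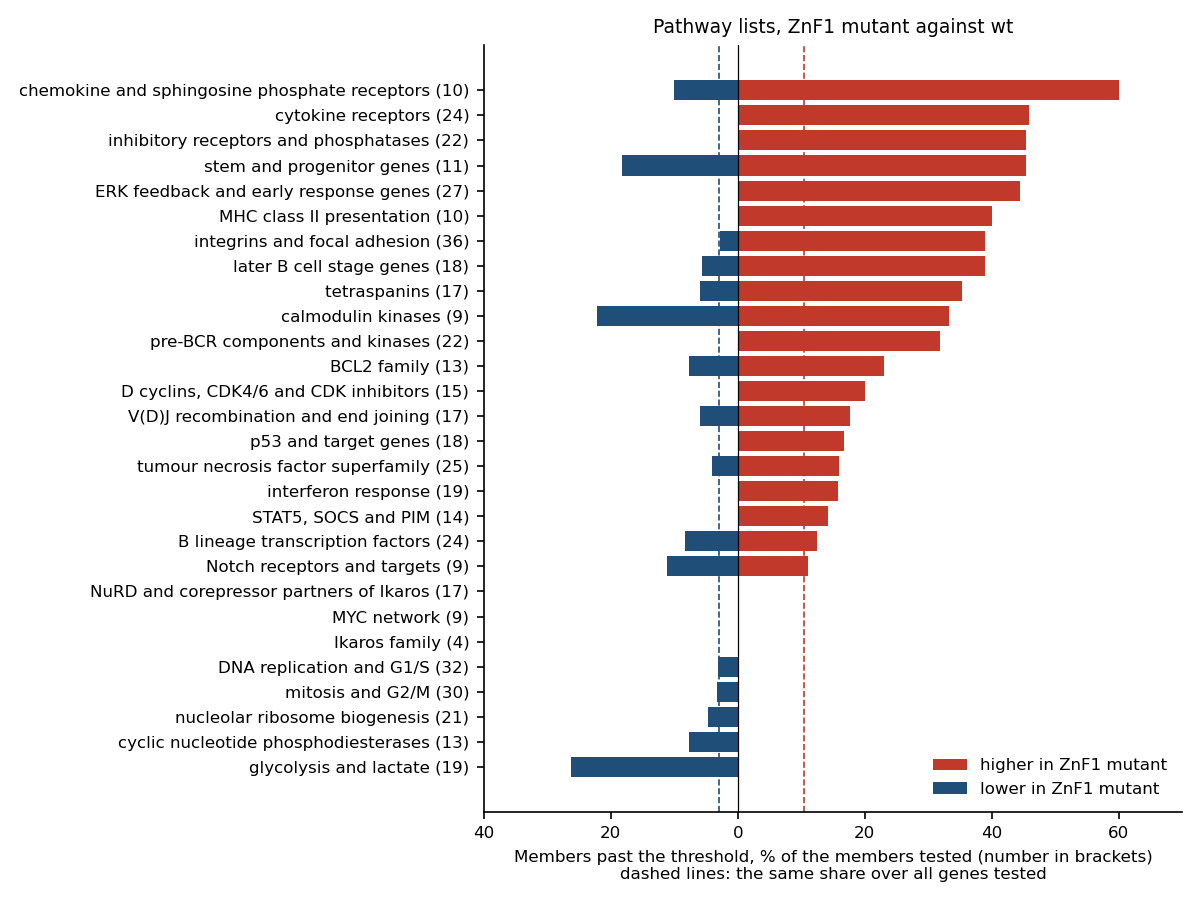
Share of the tested members of each pathway list that was called higher (red, to the right) or lower (blue, to the left) in the ZnF1 mutant, in percent, with the number tested in brackets; dashed lines give the shares over all genes tested, 10.4% and 2.88%. Receptor, adhesion and ERK lists extend to the right, while glycolysis is the list with the longest bar to the left, at 5 of 19.

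Adhesion genes that passed the test were higher in the ZnF1 mutant with 1 exception. Of 36 integrin and focal adhesion genes tested, 14 rose and 1 fell (median 0.46). Ptk2 (focal adhesion kinase) was at 1.6 and 1.9 RPKM in wt, at 4.9 and 6 in the ZnF1 mutant and at 15 and 19.6 RPKM in the ZnF4 mutant. Itgal, the alpha chain of LFA-1, was at 20.4 and 15.7 RPKM in wt and at 45.3 and 31.6 RPKM in the ZnF1 mutant. Both genes were higher in each mutant than in wt. The crosslinker Actn1 rose from 13 and 8.6 RPKM to 53.7 and 27.1 RPKM, and Cttn (cortactin) from 0.8 RPKM in both wt libraries to 3 and 2.6 RPKM. The scaffold Nedd9 fell from 145.5 and 132.7 RPKM to 92.8 and 91.3 RPKM. Macrophages and stromal cells also express many of these genes, and their summed markers moved the same way; their part was not tested.

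Of 17 tetraspanins, 6 rose and 1 fell (median 0.23). Cd9 was at 7.4 and 5.3 RPKM in wt and at 15.3 and 13.6 RPKM in the ZnF1 mutant. Cd63, a protein of late endosomes, was at 3.8 and 3.1 RPKM in wt and at 8.9 and 11.2 RPKM in the mutant. The mutant libraries lay above wt for both. Cd82 had a difference of 0.76 and Tspan3 one of 0.70, and the one that fell was Tspan13 (-0.40).

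ERK feedback and early response genes rose in 12 of 27 members, and none fell (median 0.52). Spry1, a feedback inhibitor of ERK signalling, was at 8.2 and 4.7 RPKM in wt and at 21.8 and 13.7 RPKM in the ZnF1 mutant (1.34, limma adjusted p = 0.00537). The transcription factors Jun, Fos and Fosl1 and the phosphatases Dusp1 and Dusp4 rose by 0.71, 1.10, 1.09, 0.81 and 0.70. Jun, at 48.9 and 27 RPKM in wt and at 79.7 and 45.6 RPKM in the mutant, had groups that overlapped, and its call rests on the comparison within pairs. Ccnd1 (cyclin D1) was at 9.5 and 8.9 RPKM in wt and at 31.5 and 17.6 RPKM in the mutant. The part of other cell types in this list was not tested.

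Other signalling lists held single strong changes. Among 9 calmodulin kinases, Camk1, Camk4 and Camk1d rose and Camk2b and Camk2d fell (median 0.16). Pde9a, which breaks down cyclic GMP, was the only one of 13 phosphodiesterases called (median -0.06), and it fell from 3.8 and 5.1 RPKM to 0.2 and 0.5 RPKM. Of 14 STAT5, SOCS and PIM genes, 2 rose (14.3%, median 0.16), a share near the 10.4% of all genes tested. Socs3, a feedback inhibitor of cytokine receptors, was at 26.8 and 9.3 RPKM in wt and at 67.8 and 36 RPKM in the mutant. Pim1, a survival kinase, was at 162.4 and 105.6 RPKM in wt and at 233.4 and 171.8 RPKM in the mutant. Of 25 genes of the tumour necrosis factor superfamily, 4 rose and 1 (Tnfsf4) fell (20% called, against 13.2% of all genes tested, median 0.38). The rises were led by the receptors Tnfrsf1a and Ltbr, with differences of 1.46 and 1.21. The part of other cell types in these rises, and in that of Socs3, was not tested. Among interferon response genes, 3 of 19 rose (Dhx58, Bst2 and Stat2; median 0.13), a share near that of all genes. Of 9 Notch receptors and targets, Notch2 rose by 0.84 and Hes5 fell by 0.53.

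Of 13 BCL2 family members tested, 3 rose and 1 (Bok) fell, with a median of 0.07. Bcl2l11 (Bim), which promotes death, was at 37 and 28.1 RPKM in wt and at 76.4 and 58.7 RPKM in the ZnF1 mutant, with differences of 1.03 and 1.04 in the 2 pairs (limma adjusted p = 0.00522). Bcl2l1 (Bcl-xL), which protects cells, was at 43 and 31.1 RPKM in wt and at 88.7 and 77.1 RPKM in the mutant. Bmf, which promotes death, rose from 2.5 and 2 RPKM to 11.6 and 5.5 RPKM. For these 3 genes the groups did not overlap. Of 18 p53 genes and targets, 3 rose (median 0.24): the growth inhibitor Btg2, at 15.2 and 12.4 RPKM in wt and at 45.6 and 43.7 RPKM in the mutant, the kinase Plk2, and Cdkn1a (p21), whose groups overlapped. Of 15 D cyclins, CDK4/6 and CDK inhibitors, Ccnd1, Cdkn1c and Cdkn1a rose (median 0.19). The shares that rose, 16.7% of the p53 list and 20% of the D cyclin list, stand beside 10.4% of all genes tested. With 3 genes each, they are not read as a result about these lists.

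Most growth genes had differences slightly below 0, and few passed the test, while none of 9 MYC network genes was called (median -0.06). Of 32 DNA replication and G1/S genes, 1 fell (Tyms) and 30 had a difference below 0, with a median of -0.12. Of 30 mitosis and G2/M genes, 1 fell (Cenpf) and all 30 lay below 0 (median -0.17). Of 21 nucleolar ribosome biogenesis genes, 1 fell (Ncl) and all 21 lay below 0 (median -0.21). Members of such lists vary together, so these counts are not independent of each other, and 1 fall in each is a share near that of all genes. Mki67 was at 140.2 and 258.7 RPKM in wt and at 105.7 and 226.7 RPKM in the mutant, and Myc was at 217.4 and 166.7 RPKM in wt and at 151 and 183.8 RPKM in the mutant. The 2 libraries of a group differed more than the groups did for both genes, and neither was called.

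Glycolysis and lactate genes fell in 5 of 19 members tested, and none rose (median -0.23). Leaving out replicate 1 of wt gave a median of -0.46, and leaving out that of the ZnF1 mutant gave -0.44. Without replicate 2 of wt the median was -0.24, and without that of the ZnF1 mutant it was -0.17. The hexokinases Hk1 and Hk2, which start glycolysis, had differences of -0.47 and -0.50. Pfkl (liver phosphofructokinase) was at 37.6 and 35 RPKM in wt and at 25.5 and 24.8 RPKM in the ZnF1 mutant (-0.51, limma adjusted p = 0.0238). Slc16a1, a lactate transporter, was at 83.4 and 67.5 RPKM in wt and at 58.1 and 45.6 RPKM in the mutant. Ldha was at 324.8 and 200.6 RPKM in wt and at 243.8 and 138.6 RPKM in the mutant, so its groups overlapped. The list's median was 0.20 when wt replicate 1 and ZnF1 mutant replicate 2 were left out and no block was used, and that of the replication list was 0.09. Of 17 NuRD and corepressor partners of Ikaros none was called (median -0.14), and the lowest adjusted p (limma) was 0.0509, for Chd3, at 29.2 and 33.2 RPKM in wt and at 20 and 22.9 RPKM in the mutant.

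The same fit compared the ZnF1 mutant with the ZnF4 mutant, which shares the ZnF1 mutant libraries with the comparison above. Of all genes tested, 35.1% differed between the mutants, and 1171 of the 1502 genes called against wt did so. Of the 15 largest rises and the 15 largest falls, 12 each differed from the ZnF4 mutant. Thy1 differed by -3.10 (limma, adjusted p = 0.00051), Il2ra by 4.39 and Cd74 by 3.38. No such difference was called for Rag1 (-0.00, limma adjusted p = 0.99), Rag2 (-0.05), S1pr3 (0.01), Tcf7l1 (0.27), Camk2b (0.07), Arpp21 (0.29), Epcam (0.49), Ets1 (0.06) or Myb (-0.03), which does not show that the mutants were alike. Enpep, Cxcr5 and Lig4 were lower than wt in both mutants and lowest in the ZnF4 mutant, with differences between the mutants of 2.93, 2.75 and 0.77. Of the macrophage genes, Cd68 differed by 1.49 and Csf1r by 1.10.

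**Figure D5:**
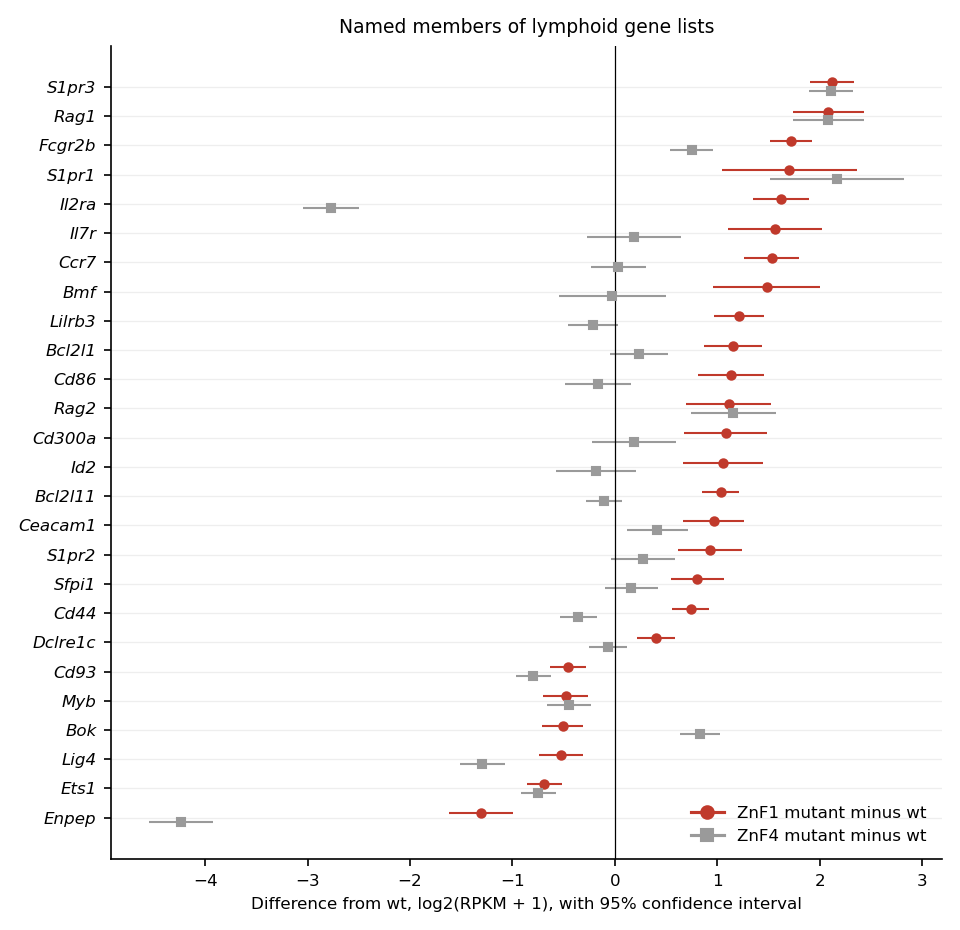
Difference from wt in log2(RPKM + 1), with its 95% confidence interval, for the 26 called genes named from 7 pathway lists. The plot heads these lists lymphoid, though they include the BCL2 family and inhibitory receptors found on myeloid cells too. Circles give the ZnF1 mutant and squares the ZnF4 mutant. Both mutants lie together for S1pr3, Rag1, Rag2 and Ets1, while Il2ra lies at 1.62 in the ZnF1 mutant and below wt in the ZnF4 mutant.

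The DNA before the start of some of these genes holds the core motif that Ikaros is known to bind, TGGGAA or, on the other strand, TTCCCA. In RefSeq windows of 250 bases before a gene's start (GRCm38.p6), the motif was found on either strand in 21.6% of all 32851 windows, in 20.4% of those of genes tested, in 21.5% of those of genes that rose and in 24.2% of those of genes that fell. Of the 30 genes named for their size, 22 matched the table, and 7 of their 35 windows held the motif. That is 20% of windows, near the share of all genes tested. The 7 windows belong to 7 genes. The windows of 4 of these, chosen after their values were seen because they are lymphoid or regulatory genes, are shown 5′ to 3′ on the strand of the gene, with the motif in capitals. Rag1 (chr2:101649533-101649782, minus strand) and Tcf7l1 (chr6:72789046-72789295, minus strand) rose, and Lat (chr7:126369569-126369818, minus strand) and Ubash3a (chr17:31207816-31208065, plus strand) fell.
Rag1: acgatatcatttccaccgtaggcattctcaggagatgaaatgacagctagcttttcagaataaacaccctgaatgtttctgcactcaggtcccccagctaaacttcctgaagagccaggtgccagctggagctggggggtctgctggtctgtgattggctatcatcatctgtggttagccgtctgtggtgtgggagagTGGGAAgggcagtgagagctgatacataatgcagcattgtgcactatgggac
Tcf7l1: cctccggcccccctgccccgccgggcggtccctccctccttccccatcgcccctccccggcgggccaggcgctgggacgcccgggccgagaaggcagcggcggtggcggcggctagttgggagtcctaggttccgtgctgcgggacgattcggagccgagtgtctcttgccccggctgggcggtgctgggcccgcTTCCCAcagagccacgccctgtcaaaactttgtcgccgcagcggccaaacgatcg
Lat: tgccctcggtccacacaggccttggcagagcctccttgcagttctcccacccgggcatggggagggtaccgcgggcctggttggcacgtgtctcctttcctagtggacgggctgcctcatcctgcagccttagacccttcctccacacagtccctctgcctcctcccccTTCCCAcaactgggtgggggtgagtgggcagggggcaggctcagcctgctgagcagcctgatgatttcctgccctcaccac
Ubash3a: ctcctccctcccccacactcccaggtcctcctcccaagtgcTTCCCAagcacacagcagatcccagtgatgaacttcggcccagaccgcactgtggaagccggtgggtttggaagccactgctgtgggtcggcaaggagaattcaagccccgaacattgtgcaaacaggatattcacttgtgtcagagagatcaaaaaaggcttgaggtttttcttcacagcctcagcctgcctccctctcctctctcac
The first base of the motif lies 52, 55, 81 and 209 bases before the start in Rag1, Tcf7l1, Lat and Ubash3a. It reads TGGGAA on the strand of Rag1 and TTCCCA on that of the other three. A match of these letters is a description of the window and not a measured site, since binding was not measured here.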

How the data were processed

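Polyadenylated RNA of 6 cultures was sequenced, 2 from each of wt, ZnF1 mutant and ZnF4 mutant marrow. The authors deposited 1 RPKM value, rounded to 1 decimal, per RefSeq transcript and library. TopHat, bedtools and the build mm9 are named in the submitters' processing notes. The counting rule and the use of strand are not given in the sources used here, and depth is unknown, since rounding hides the worth of 1 read. RPKM summed to 287007 to 345766 per library, and 10582 to 11119 genes had at least 1 RPKM.

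Rows (26531) were summed per symbol, 1 row without a gene was left out, and 39 of 40 symbols that had become numbers were restored. The values log2(RPKM + 1) of all 6 libraries entered 1 model in limma 3.58.1 (R 4.3.3), with a mean-dependent prior variance, 3 group means and the replicate number as a block, leaving 2 residual and 3.06 prior degrees of freedom. Same-numbered libraries deviated together from their group means, with correlations across genes of 0.5 (wt and ZnF1 mutant), 0.754 (wt and ZnF4 mutant) and 0.715 (both mutants); the pairing comes from the replicate numbers in the labels. The fit was tested on simulated data, where nearly all changed genes were recovered and the share of false calls was somewhat above the threshold. Those data had independent noise for each gene and a true replicate block. They therefore cannot test the pairing or a mix of cells that varies between libraries.

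Genes were named by rule: the Ikaros family, the 15 largest rises and falls (symbols of gene models and small RNAs left out), up to 4 called members of each list by p, the 5 most abundant rises and falls, and B lineage markers; Fgr, Vpreb2, Sykb, Bcl6, Ptpn6, Lair1, Lilrb4, Cd55, Cd180, Kit, Ifngr1, Tgfbr2, Ifngr2, Actn1, Nedd9, Fos, Fosl1, Dusp1, Dusp4, Camk1d, Slc16a1, Mki67, Myc, S100a8, Col1a1 and Tspan13 were named after their values were seen. A few genes that the rule or the lists hold are not reported here. The members and the 38 lists, 28 of pathways and 10 of markers, were chosen with earlier results of these data known.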

Additional observations from a re-analysis of the deposited data

How the results depend on the processing

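Without the replicate block, the ZnF1 mutant against wt gave 0 calls and the ZnF1 against the ZnF4 mutant 609, where the fit with the block gave 1502 and 3979. With no filter on low values, 199 genes were called, 159 higher and 40 lower, of which 189 were shared with the 1502. With the wt and ZnF1 mutant libraries alone, 700 were called, 570 higher and 130 lower. Without wt replicate 1 and ZnF1 mutant replicate 2 and with no replicate block, a contrast that crosses replicate numbers, 0 genes were called against wt and 0 against the ZnF4 mutant, and 1442 of the 1502 kept their direction. A pseudocount of 0.1, a filter of at least 5 RPKM, median-of-ratios rescaling, the highest row per symbol and leaving out 84 markers of other cell types gave 1556, 1051, 1580, 1471 and 1542 calls. None of these settings reversed a called gene named in the text. The filter and the leaving out of markers cannot do so, since they do not change the difference of a gene that stays. A pseudocount cannot change the sign of a difference within a pair.

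Leaving out each library in turn gave 0 to 694 calls, 0 to 562 higher and 0 to 132 lower, and 1193 to 2792 against the ZnF4 mutant. Among genes named in the text, only uncalled ones changed sign in these fits or with rescaling: their differences ran from -0.049 to 0.029 for Ebf1, from -0.065 to 0.17 for Ikzf3, from -0.0006 to 0.035 for Ikzf5, from -0.50 to 0.12 for Myc, from -0.16 to 0.62 for Pax5 and from -4.83 to 7.89 for S100a8, and Ikzf5 was at -0.0005 with rescaling. In the fit that crosses replicate numbers, the called genes Dclre1c (-0.14), Ldha (0.28), Lgals9 (0.44), Tyms (0.14), Bok (0.48), Hes5 (0.35) and Tspan13 (0.18) and the uncalled Ebf1 (0.16), Ikzf3 (-0.22) and Ikzf5 (-0.066) reversed. The cause was not tested. The median of the stem and progenitor list was -0.05 with a filter of at least 5 RPKM. With 1 wt or ZnF1 mutant library left out, the medians of other lists ran from -0.19 to 0.12 for the MYC network, from -0.11 to 0.01 for V(D)J recombination, from 0.13 to 0.35 for interferon response, from 0.14 to 0.35 for p53 genes, from 0.02 to 0.24 for D cyclins, from 0.04 to 0.14 for the BCL2 family, from -0.06 to -0.03 for phosphodiesterases, from -0.17 to -0.07 for replication genes and from 0.45 to 0.94 for the 3 dendritic cell markers. Depth is unknown, so counting error is given for no value.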
